A study of Mus musculus with 7 samples.

Results

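Chemokines and their receptors were followed in RNA-seq libraries of mouse hindlimb tendon. The members were the protein-coding genes whose symbol begins with Ccl, Cxcl, Ccr or Cxcr and a digit, together with Cx3cl1, Cx3cr1, Xcl1, Xcr1 and Ackr1 to Ackr4. The deposited tables held 60 of the 67 such genes in the annotation, out of 42689 genes in all, and these were 37 ligands and 23 receptors. The other 7 lie on scaffolds outside the assembled chromosomes and are not analysed here.

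Mice of C57BL/6 background were burned on the back to partial thickness, with a block at 60 °C applied for 18 s to 30% of their surface, and in the same session the Achilles tendon of one hindlimb was cut through. The tenotomy group (n = 2) was taken at the cut site 3 weeks after injury. The contralateral group (n = 3) is the uncut tendon on the opposite side of burned and tenotomised mice at that time, so these controls carry the burn too. The uninjured group (n = 2) is tendon from wild-type mice that were neither burned nor operated on. No label gives the age of the animals or says whether libraries came from separate animals, so p-values measure only the spread between these libraries, which may be technical.

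Chemokines are small secreted proteins that guide the migration of leukocytes by acting on receptors of the 7-transmembrane class. They are classed by the first cysteines of the mature protein, which are adjacent in CC chemokines, separated by a single residue in CXC chemokines and further apart in the CX3C chemokine. Inflammatory CC ligands recruit monocytes through Ccr2 and related receptors, Cxcl12 acts through Cxcr4 to hold and guide progenitor cells, and the atypical receptors Ackr1 to Ackr4 bind chemokines without classical G protein signalling.

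The coding stretch around this cysteine signature is shown for the ligands on which the results turn, since it sets the class to which each belongs. Capitals mark the cysteine codons. The sequences run 5′ to 3′ on the coding strand and come from the GRCm38 genome.
Ccl8: ccagtcaccTGCTGCtttcatgta
Ccl7: gcatccacaTGCTGCtatgtcaag
Ccl12: ccagtcacgTGCTGTtataatgtt
Ccl6: tcttcagacTGCTGCttctcttat
Ccl9: tcttcagatTGCTGCctgtcctat
Cxcl14: gggtccaagTGTaagTGTtcccggaag
Cxcl16: gctggaagtTGTtctTGTgatcgtacc
Cxcl12: agctaccgaTGCcccTGCcggttcttc
Cx3cl1: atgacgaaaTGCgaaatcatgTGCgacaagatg
The stretches lie in coding exons at chr11:82116047-82116070 (Ccl8, plus strand), chr11:82046529-82046552 (Ccl7, plus), chr11:82102625-82102648 (Ccl12, plus), chr11:83589377-83589400 (Ccl6, minus), chr11:83575917-83575940 (Ccl9, minus), chr11:70459118-70459144 (Cxcl16, minus), chr6:117171499-117171525 (Cxcl12, plus) and chr8:94778042-94778074 (Cx3cl1, plus). That of Cxcl14 spans an intron between chr13:56295906 and chr13:56296110 on the minus strand. The cysteine codons are adjacent in the CC ligands, have 1 codon between them in the CXC ligands and 3 in Cx3cl1. Each pair was sought with the spacing of the class in the gene's name, so the spacing is an illustration and not a finding.

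Libraries held 25927171 to 36725106 estimated counts, but 76.4% to 81.4% of these fell on 5 features, which left 4934057 to 8375626 for all others. Chemokine and receptor genes together received 1377 to 2072 counts in the contralateral libraries, 3721 and 2980 in the tenotomy libraries, and 3101 and 1760 in the uninjured libraries. Levels are given as CPM, counts scaled to a common library total with normalisation factors from trimmed means. At this depth 33 of the 60 genes, 20 ligands and 13 receptors, passed the filter on low counts and were tested. The 27 genes that did not pass had at most 14 counts in any library. Of the tendon markers, Scx and Tnmd were higher at the tenotomy site (log2 fold changes 1.43 and 1.89, adjusted p = 0.017 for both), and Mkx, Fmod and Thbs4 did not pass the test. Summed tendon markers stood at 148 to 246 CPM in the contralateral and at 308 and 305 CPM in the tenotomy libraries. Skeletal muscle markers stood far above them, at 6867 to 8962 CPM in the contralateral and 710 and 712 CPM in the tenotomy libraries, so the tissue labelled tendon held muscle RNA in every group.

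The first comparison asks how chemokine expression differs between the injured and the intact tendon of such mice. At the tenotomy site 10 of the 33 tested genes rose and 1 fell (edgeR's quasi-likelihood test, Benjamini-Hochberg adjusted p under 0.05 over 16028 features, fitted on all 7 libraries). The genes that rose included Ccl6, Ccl7, Ccl8, Ccl9, Cxcl14, Cxcl16, Ccr1, Ccr2 and Cxcr4, and Ccl27a fell. The members called higher made up 30.3% of those tested, against 13.6% of all features, and the gene called lower made up 3.03%, against 15.4% of all features. Genes low in the contralateral libraries passed the filter only through libraries of the other groups. Ccl8, with 6, 8 and 5 contralateral counts, and Ccl7, with 1, 9 and 4, were such genes, and so was Ccr1. Cxcr4 also needed libraries of the other groups to pass. In reverse, Ccl27a, with 8 and 6 tenotomy counts, passed only through libraries of the other groups. How far this moved the shares called higher and lower was not tested. The median log2 fold change was 0.37 over the tested members and -0.0012 over all tested features.

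The spread in this fit includes the uninjured libraries, which lie far apart. When only the 5 tenotomy and contralateral libraries were fitted, 15 of 34 members were higher and 2 lower, against 22.1% and 24.1% of 16014 features. This fit added Ccl5, Ccl12, Cxcl12, Cx3cr1 and Ccl21a to the genes called higher and Ccl19 to those called lower. Leaving any 1 tenotomy or contralateral library out of the fit of all libraries ended every call, for members and for all features alike. Leaving each out of the fit of 5 libraries gave 13 to 15 members higher and 1 to 3 lower, against 14.7% to 23.3% and 17.4% to 25.2% of features. Leaving out an uninjured library instead gave 15 higher and 2 lower of 35 members, against 21% and 22% of features without replicate 1 and 21.2% and 22.3% without replicate 2. With limma-voom and with length-scaled TPM 10 members were again higher and 1 lower, but 2 of the 11 calls were lost and 2 others gained under each, against 13.3% and 14.6% of features with limma-voom and 8.93% and 10.7% with length-scaled TPM.

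**Figure D1:**
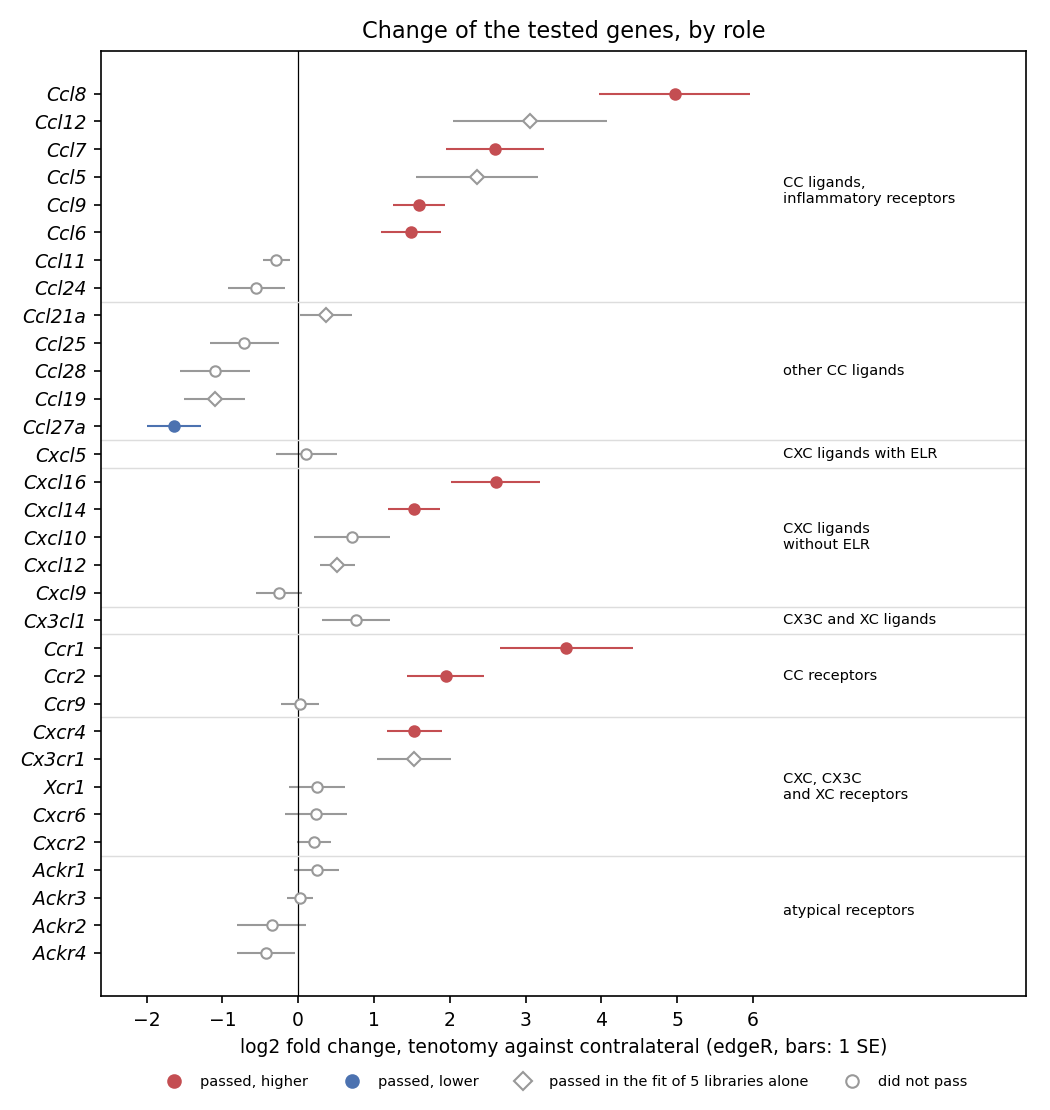
Log2 fold change of 32 of the 33 tested genes, tenotomy against contralateral tendon, with bars of 1 SE, from the edgeR fit of 7 libraries (n = 2 and 3). Genes are ordered by role; filled red and blue points passed the test, open diamonds passed only when the 5 libraries were fitted alone, and Ccl8 has the highest value at 4.96.

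Among the CC ligands of inflammatory receptors, 8 of 12 were tested, 4 rose and none fell, against 13.6% and 15.4% of all features. Ccl8 (MCP-2), a monocyte and lymphocyte attractant, changed most. It stood at 0.225, 0.228 and 0.155 CPM in the contralateral libraries, at 6.12 and 6.73 CPM in the tenotomy libraries, and at 5.39 and 0.241 CPM in the uninjured libraries. Both tenotomy libraries and uninjured replicate 1 were far above the other 4. The contralateral values of Ccl8 rest on 6, 8 and 5 counts. The log2 fold change of Ccl8 was 4.96 ± 1.00 (SE; adjusted p = 0.017), and with limma-voom it was 4.90 and missed the threshold (adjusted p = 0.054).

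Ccl7 (MCP-3), a ligand of Ccr2, stood at 0.0375, 0.256 and 0.124 CPM in contralateral, 0.979 and 0.833 CPM in tenotomy, and 0.683 and 0.172 CPM in uninjured libraries. The tenotomy libraries were above the contralateral ones, as in 31.9% of all features, and Ccl7 rose by a log2 fold change of 2.60 ± 0.65 (adjusted p = 0.024). Its contralateral values rest on 1, 9 and 4 counts.

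Ccl6 and Ccl9 are neighbouring genes whose products act on Ccr1. Ccl9 stood at 1.05, 1.48 and 1.14 CPM in contralateral, 3.67 and 3.80 CPM in tenotomy, and 3.56 and 1.45 CPM in uninjured libraries, a log2 fold change of 1.60 ± 0.34 (adjusted p = 0.018, and 0.067 with length-scaled TPM). Ccl6 stood at 1.27, 1.85 and 1.55 CPM in contralateral, 4.22 and 4.60 CPM in tenotomy, and 4.67 and 1.58 CPM in uninjured libraries, a log2 fold change of 1.49 ± 0.39 (adjusted p = 0.029). In both genes uninjured replicate 1 was at the tenotomy level and replicate 2 within the contralateral range.

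Ccl12 (MCP-5), a mouse ligand of Ccr2, stood at 0.225, 0.0569 and 0.0309 CPM in contralateral, 0.870 and 0.800 CPM in tenotomy, and 0.611 CPM and 0 in uninjured libraries. Its log2 fold change of 3.06 ± 1.01 missed the threshold in the fit of all libraries (adjusted p = 0.057) and passed in the fit of 5 (adjusted p = 0.00043). Ccl5 (RANTES), which acts on Ccr1, had 3, 3 and 2 counts in contralateral, 23 and 8 in tenotomy, and 14 and 2 in uninjured libraries. Its log2 fold change was 2.36 ± 0.81 (adjusted p = 0.062, and 0.0045 in the fit of 5 libraries). For Ccl12 and Ccl5 the tenotomy libraries were above the contralateral ones, as in 31.9% of all features. The contralateral values of Ccl12 rest on 6, 2 and 1 counts and those of Ccl5 on 3, 3 and 2. Both genes passed the filter only through libraries of the other groups.

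Ccl2 (MCP-1), the best known ligand of Ccr2, was near the limit of detection. It had 4, 5 and 4 counts in contralateral, 14 and 8 in tenotomy, and 6 and 7 in uninjured libraries, and did not pass the filter in the fit of 7 libraries. In the fit of 5 its log2 fold change was 1.22 ± 0.48 (adjusted p = 0.056). The eotaxins Ccl11 and Ccl24, ligands of Ccr3, did not pass the test. Ccl11 was at 2.14 to 2.48 CPM in contralateral and at 1.71 and 2.17 CPM in tenotomy libraries (log2 fold change -0.29 ± 0.17, adjusted p = 0.25), and Ccl24 had a log2 fold change of -0.55 ± 0.38 (adjusted p = 0.30). Ccl3, Ccl4 and Ccl26 had at most 4 counts in any library.

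**Figure D2:**
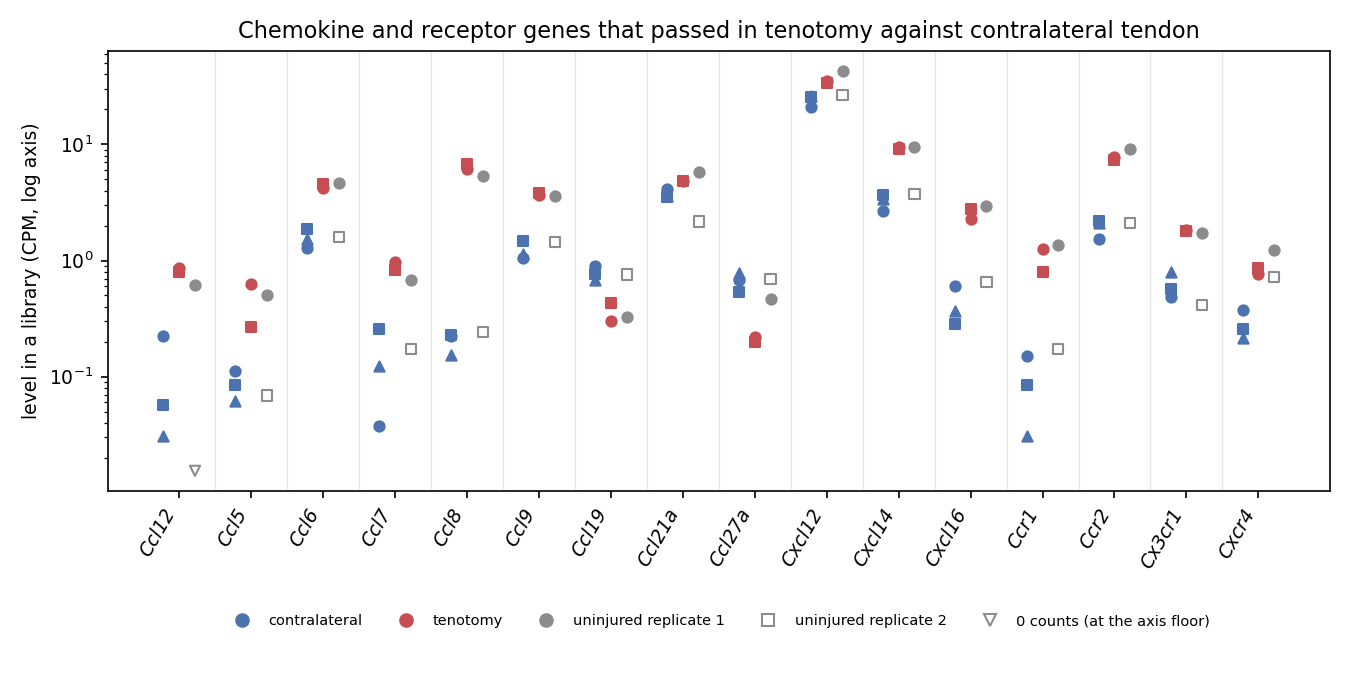
Level in each library (CPM, log axis) of 16 of the 17 genes called in tenotomy against contralateral tendon in either fit, with colours for the groups and marker shapes for replicates 1 (circle), 2 (square) and 3 (triangle). Uninjured replicate 1 (filled grey) lies near the tenotomy libraries for Ccl8 (5.39 CPM) and uninjured replicate 2 (open square) near the contralateral libraries (0.241 CPM); the open triangle is a count of 0.

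Ccl7, Ccl12 and Ccl8 lie in a run of CC ligand genes on chromosome 11 in the order Ccl2, Ccl7, Ccl11, Ccl12 and Ccl8. Ccl11, between Ccl7 and Ccl12, had a fold change on the other side of 0 and did not pass the test. Further along, Ccl5, Ccl9 and Ccl6 were higher at the tenotomy site in the fit of 5 libraries, whereas Ccl3 and Ccl4 were too low to test. On chromosome 9 the receptor genes Ccr1 and Ccr2 rose, whereas Ccr9, Cxcr6 and Xcr1 at the other end of the run did not pass the test.

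**Figure D3:**
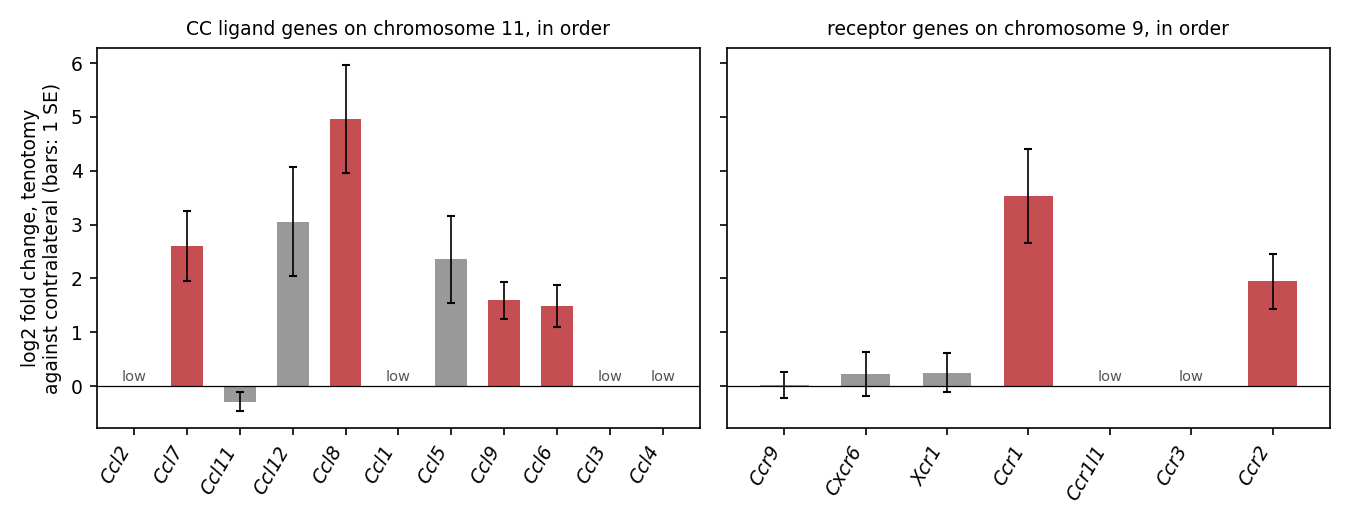
Log2 fold change, tenotomy against contralateral tendon (bars 1 SE), for CC ligand genes on chromosome 11 and receptor genes on chromosome 9, in order along each chromosome and not to scale. Red bars passed the test in the fit of 7 libraries, grey bars did not, and low marks genes under the count filter; Ccl11 (-0.29) stands between Ccl7 (2.60) and Ccl12 (3.06).

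The promoter entries of RefSeq (GRCm38.p6) matched 46 of the 60 members. The 120 bases before the start are shown for Ccl8 and Ccl12, neighbours both called higher in the fit of 5 libraries. They are also shown for Ccl9 and Ccr1, the called genes whose promoters held a match to the NF-kB consensus. Capitals mark matches to the NF-kB consensus, TGANTCA or TATAAA, searched on both strands in 250 bases before the start.
Ccl8: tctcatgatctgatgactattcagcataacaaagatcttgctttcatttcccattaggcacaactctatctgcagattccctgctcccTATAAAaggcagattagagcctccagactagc
Ccl12: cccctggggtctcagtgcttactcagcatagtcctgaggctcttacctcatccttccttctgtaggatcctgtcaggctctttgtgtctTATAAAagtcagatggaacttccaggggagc
Ccl9: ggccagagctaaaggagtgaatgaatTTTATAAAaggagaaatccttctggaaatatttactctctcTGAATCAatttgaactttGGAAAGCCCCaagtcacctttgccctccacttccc
Ccr1: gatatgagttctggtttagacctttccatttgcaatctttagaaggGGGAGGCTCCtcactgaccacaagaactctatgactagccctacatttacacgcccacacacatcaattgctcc
They lie at chr11:82115065-82115184 (Ccl8, plus strand), chr11:82101725-82101844 (Ccl12, plus), chr11:83578637-83578756 (Ccl9, minus) and chr9:123968693-123968812 (Ccr1, minus). In Ccl9 the capitals TTTATAAA hold overlapping TATAAA matches on both strands. TATAAA began 32 bases before the start in Ccl8 and 31 in Ccl12. It was found in 13 of the 46 member promoters and in 3504 of all 27025 promoters (13.0% of the latter). The NF-kB consensus was found in 10 of 46 members and in 1894 of all 27025 promoters (7.01% of the latter). TGANTCA was found in 4 of 46 members and in 1856 of all 27025 promoters (6.87% of the latter). These matches describe the letters of the window only.

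The other CC ligands act mainly on lymphoid and epithelial receptors. Here 5 of 11 were tested, none rose and 1 fell, where 13.6% of all features rose and 15.4% fell. These counts are too small to set the role apart from all features. Ccl27a, a skin chemokine and ligand of Ccr10, stood at 0.675, 0.541 and 0.773 CPM in contralateral, 0.218 and 0.200 CPM in tenotomy, and 0.467 and 0.688 CPM in uninjured libraries. Both tenotomy libraries were below all others, and the log2 fold change was -1.64 ± 0.36 (adjusted p = 0.018). The tenotomy values of Ccl27a rest on 8 and 6 counts. Ccl27a shares 37.7% of its 31-base words with Gm20878, so the split of counts between them is uncertain.

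Ccl19 and Ccl21a are ligands of Ccr7. Ccl19 had 24, 27 and 22 counts in contralateral, 11 and 13 in tenotomy, and 9 and 22 in uninjured libraries, with a log2 fold change of -1.10 ± 0.40 (adjusted p = 0.076, and 0.016 in the fit of 5 libraries). Ccl21a stood at 4.12, 3.53 and 3.59 CPM in contralateral, 4.87 and 4.80 CPM in tenotomy, and 5.75 and 2.17 CPM in uninjured libraries. Its log2 fold change was 0.37 ± 0.34 (adjusted p = 0.45, and 0.032 in the fit of 5). Ccl21a was called in only 1 of the 5 fits that left a library out of these 5, and Ccl19 in 4. Both are uncertain, since Ccl21a shares 80.6% of its 31-base words with Gm21541 and Ccl19 58.8% with Gm2564. Ccl25 and Ccl28 did not pass the test (log2 fold changes -0.71 ± 0.46 and -1.09 ± 0.46, adjusted p = 0.27 and 0.11), and Ccl1, Ccl17, Ccl20, Ccl21b, Ccl22 and Ccl27b were not tested.

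Ligands of the neutrophil receptor Cxcr2, which carry the ELR motif, were scarce. Cxcl5 was the only one of 5 tested and had 8 to 17 counts in every library (log2 fold change 0.11 ± 0.40, adjusted p = 0.87). Cxcl1 reached 6 counts, Cxcl15 reached 4, Cxcl2 reached 3 and Cxcl3 reached 2 in any library.

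Of the CXC ligands without that motif 5 of 7 were tested and 2 rose, where 13.6% of all features rose. Cxcl14, made by epithelial and stromal cells, stood at 2.66, 3.64 and 3.40 CPM in contralateral, 9.52 and 9.20 CPM in tenotomy, and 9.52 and 3.72 CPM in uninjured libraries, a log2 fold change of 1.53 ± 0.35 (adjusted p = 0.020). Cxcl16, a membrane-anchored ligand of Cxcr6, stood at 0.600, 0.285 and 0.371 CPM in contralateral, 2.26 and 2.77 CPM in tenotomy, and 2.95 and 0.654 CPM in uninjured libraries, a log2 fold change of 2.61 ± 0.59 (adjusted p = 0.019). For both, the tenotomy libraries and uninjured replicate 1 stood above all others. Cxcl16 overlaps Zmynd15 on the opposite strand and shares 18.5% of its 31-base words with it. Zmynd15 had 4, 6 and 5 counts in contralateral, 34 and 32 in tenotomy, and 23 and 11 in uninjured libraries. How far shared reads enter the rise of Cxcl16 was not tested. The interferon-induced ligands of Cxcr3 did not pass the test, with log2 fold changes of 0.71 ± 0.50 for Cxcl10 (adjusted p = 0.32) and -0.25 ± 0.31 for Cxcl9 (adjusted p = 0.58). Cxcl13 reached 13 counts and Cxcl17 reached 3.

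Cxcl12, the ligand of Cxcr4 and Ackr3, had the highest mean of all members in the contralateral libraries per length, at 0.98 ± 0.13 TPM (SD, n = 3), a unit that divides counts by transcript length. It was followed by Ccl21a at 0.86 ± 0.16 and Ccl11 at 0.40 ± 0.05 TPM. In contralateral replicate 1 the order of the leading pair was reversed, with Ccl21a at 1.02 and Cxcl12 at 0.947 TPM. At the tenotomy site Ccl8 led with 3.20 ± 0.40 TPM (SD, n = 2), before Cxcl12 at 2.35 ± 0.11, Ccl21a at 1.05 ± 0.06 and Cxcl14 at 0.81 ± 0.04 TPM.

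Summed over its transcripts, Cxcl12 stood at 20.9, 25.4 and 26.0 CPM in contralateral, 35.2 and 33.8 CPM in tenotomy, and 43.0 and 26.7 CPM in uninjured libraries. The tenotomy libraries were above the contralateral ones, as in 31.9% of all features. The log2 fold change by counts was 0.52 ± 0.23 (adjusted p = 0.13, and 0.0014 in the fit of 5 libraries). With counts derived from length-scaled TPM it was 1.31 (adjusted p = 0.043, fit of 7 libraries), more than 1.5 times the fold by counts. The transcripts of Cxcl12 differ in length and did not change together.

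The coding forms of Cxcl12 share 267 coding bases and differ in their ends, which are shown because the tenotomy and contralateral libraries differed in which end was used. Capitals mark the bases after the shared part, up to and including the stop codon, on the plus strand of chromosome 6 (GRCm38).
Cxcl12-201: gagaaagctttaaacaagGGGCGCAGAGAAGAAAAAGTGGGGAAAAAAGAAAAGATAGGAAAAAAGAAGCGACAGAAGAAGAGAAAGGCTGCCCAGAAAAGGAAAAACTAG
Cxcl12-202: gagaaagctttaaacaagTAA
Cxcl12-203: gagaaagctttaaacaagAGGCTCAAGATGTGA
Cxcl12-202 encodes the alpha form of 89 codons and ends in the third exon at this point (chr6:117173562-117173582 for the bases shown). Cxcl12-203 encodes the beta form of 93 codons. Cxcl12-201 encodes the gamma form of 119 codons, whose tail is rich in lysine and arginine codons and is known to bind heparan sulfate strongly. Cxcl12-204 is annotated as a retained intron.

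Cxcl12-202 had estimated counts of 117, 165 and 149 in contralateral libraries, 874 and 694 in tenotomy libraries, and 852 and 162 in uninjured libraries. Cxcl12-201 had 373, 590 and 605 in contralateral, 232 and 195 in tenotomy, and 189 and 478 in uninjured libraries. As a share of the gene's TPM, the alpha transcript held 38.9% to 43.3% in contralateral libraries and 82.9% and 84.0% at the tenotomy site. The gamma transcript held 41.5% to 47.5% in contralateral libraries and 6.66% and 7.21% at the tenotomy site. Uninjured replicate 1 had 85.2% alpha and uninjured replicate 2 had 41.9%.

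Transcript use within genes was tested with edgeR's diffSpliceDGE, a test added after the data were seen. In the fit of the 5 libraries Cxcl12-202 rose relative to the gene's other transcripts by 1.28 on the log2 scale (adjusted p = 0.00013) and Cxcl12-201 changed by -1.30 (adjusted p = 0.00020). They were the only 2 of 16 member transcripts called, against 1.22% of 18800 transcripts, and both were called in all 5 fits that left a library out. In the fit of all 7 libraries neither passed (adjusted p = 0.15 and 0.20, with 0.265% of 19597 transcripts called). Only 2.11% of the 31-base words of Cxcl12-202 occur in no other transcript of the gene, so its own count rests on estimation. The contrast of near and far ends rests on more sequence, since 82.7% of the words of Cxcl12-202 are in neither Cxcl12-201 nor Cxcl12-203, and 94.1% of those of Cxcl12-201 are in neither Cxcl12-202 nor Cxcl12-204. The transcripts ending in the third exon together held 25.4% to 29.6% of counts in contralateral and 71.9% and 72.8% in tenotomy libraries. Muscle markers fell by a median log2 fold change of -3.40 between the same groups (7 of 7 called lower), and their part in the change of Cxcl12 transcripts was not tested.

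**Figure D4:**
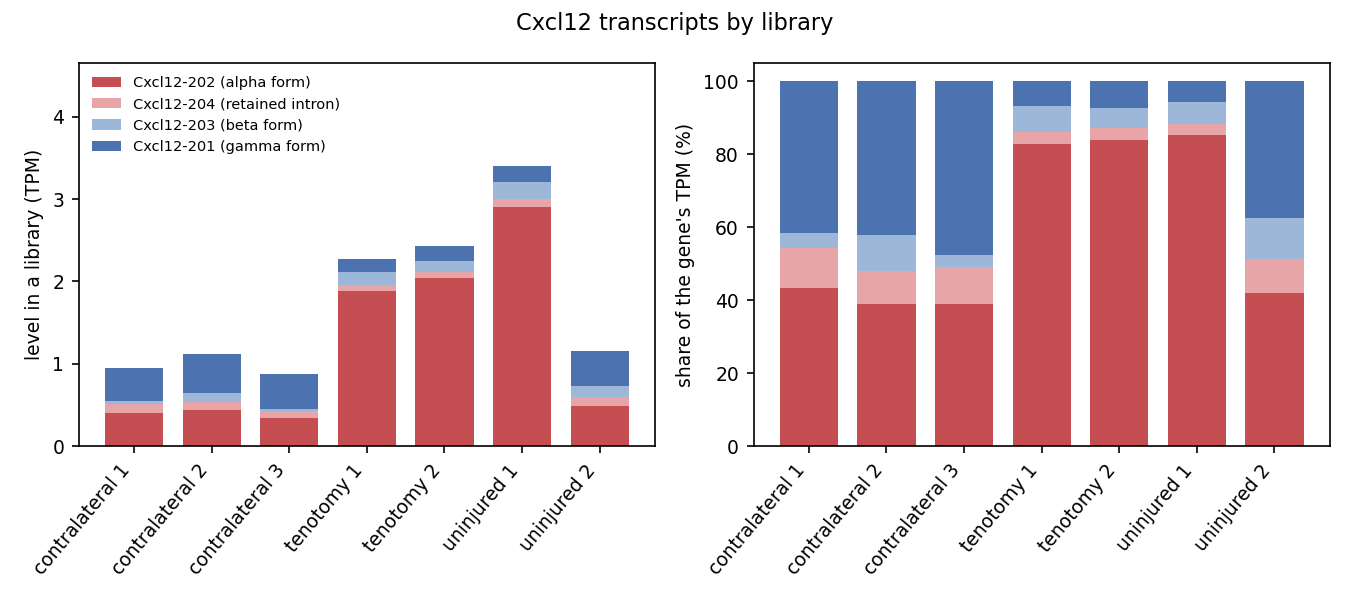
Cxcl12 transcripts in the 7 libraries, as TPM (left, bars stacked from 0) and as a share of the gene's TPM (right, %). The alpha form (red) takes most of the bar in both tenotomy libraries and in uninjured replicate 1, and the gamma form (dark blue) takes a larger share in the other 4 libraries than in these.

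Cx3cl1 (fractalkine), a membrane-bound adhesion chemokine, stood at 0.450, 0.285 and 0.588 CPM in contralateral, 0.762 and 0.733 CPM in tenotomy, and 0.755 and 0.275 CPM in uninjured libraries. The tenotomy libraries were above the contralateral ones, as in 31.9% of all features, and the uninjured libraries stood 1 at the tenotomy level and 1 just below the contralateral range. The log2 fold change of 0.77 ± 0.45 missed the threshold (adjusted p = 0.23). Xcl1, the ligand of Xcr1, had at most 2 counts.

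Among the CC receptors, Ccr1 and Ccr2 rose. Ccr2, which brings monocytes out of bone marrow and into injured tissue, stood at 1.54, 2.19 and 2.10 CPM in contralateral, 7.75 and 7.33 CPM in tenotomy, and 9.16 and 2.10 CPM in uninjured libraries. The log2 fold change was 1.95 ± 0.51 (adjusted p = 0.027). Ccr1 stood at 0.150, 0.0854 and 0.0309 CPM in contralateral, 1.25 and 0.800 CPM in tenotomy, and 1.37 and 0.172 CPM in uninjured libraries, with a log2 fold change of 3.54 ± 0.88 (adjusted p = 0.024, and 0.076 with limma-voom). The contralateral values of Ccr1 lie near the limit of detection, since 0.0309 CPM in contralateral replicate 3 is 1 count. As with the ligands, uninjured replicate 1 stood with the tenotomy libraries for both receptors.

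Ccr9, the receptor of Ccl25, had a log2 fold change of 0.02 ± 0.25 (adjusted p = 0.96). Ccr7, the receptor of Ccl19 and Ccl21a, was listed at 0 in all 3 contralateral libraries and had 10 and 6 counts at the tenotomy site and 0 and 1 in uninjured libraries. It was tested only when no filter on low counts was used and then passed (adjusted p = 0.0099). That fit called 14 of 54 members higher and 1 lower, against 8.12% and 9.13% of 29100 features. Ccr3, the eotaxin receptor, and Ccr10, the receptor of Ccl27a, reached 10 counts in a library each, and Ccr1l1, Ccr4, Ccr6 and Ccr8 reached at most 4.

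Of the CXC, CX3C and XC receptors 5 of 8 were tested and 1 rose, where 13.6% of all features rose. This count is too small to set the role apart from all features. Cxcr4, the receptor of Cxcl12, stood at 0.375, 0.256 and 0.216 CPM in contralateral, 0.762 and 0.867 CPM in tenotomy, and 1.22 and 0.723 CPM in uninjured libraries. Every tenotomy and uninjured library was above the contralateral ones. The log2 fold change, tenotomy against contralateral, was 1.53 ± 0.36 (adjusted p = 0.021). Cx3cr1, the fractalkine receptor of monocytes and macrophages, stood at 0.487, 0.569 and 0.804 CPM in contralateral, 1.82 and 1.80 CPM in tenotomy, and 1.72 and 0.413 CPM in uninjured libraries. Its log2 fold change was 1.53 ± 0.49 (adjusted p = 0.051, and 0.00020 in the fit of 5 libraries).

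Cxcr6, the receptor of Cxcl16, had a log2 fold change of 0.23 ± 0.41 (adjusted p = 0.71), whereas its ligand rose. Xcr1, a marker of cross-presenting dendritic cells, and Cxcr2 had log2 fold changes of 0.25 ± 0.37 (adjusted p = 0.65) and 0.21 ± 0.22 (adjusted p = 0.53). Cxcr1 was listed at 0 in every library, and Cxcr3 and Cxcr5 reached 7 counts.

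All 4 atypical receptors were tested and none passed. Ackr3, which scavenges Cxcl12, stood at 3.75, 3.78 and 3.80 CPM in contralateral, 3.81 and 3.90 CPM in tenotomy, and 3.52 and 4.92 CPM in uninjured libraries, with a log2 fold change of 0.03 ± 0.17 (adjusted p = 0.92). Ackr1, found on venules and red cells, Ackr2, a scavenger of inflammatory CC ligands, and Ackr4, a scavenger of Ccl19 and Ccl21a, had log2 fold changes of 0.24 ± 0.30, -0.35 ± 0.45 and -0.42 ± 0.39 (adjusted p = 0.58, 0.60 and 0.44). With length-scaled TPM Ackr1 passed with a log2 fold change of 1.11 (adjusted p = 0.044), where 8.93% of features were called higher and 10.7% lower. The short transcript Ackr1-203 of 167 bases had 1 count in each tenotomy library and none elsewhere, and held 46.9% and 46.4% of the gene's TPM there. Ackr1 shares 23.0% of its 31-base words with Cadm3. Summed atypical receptors stood at 5.77 to 7.26 CPM in contralateral and 5.90 and 6.63 CPM in tenotomy libraries.

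Genes that act downstream of chemokine receptors were counted in a list of 36, all tested, of which 18 rose and 2 fell, with a median log2 fold change of 0.70. Of all features 13.6% rose and 15.4% fell. With length-scaled TPM 9 of the list were higher and 1 lower, against 8.93% and 10.7% of features. The kinase Fgr of myeloid cells rose by 3.11, the regulator of G protein signalling Rgs1 by 2.84, and the leukocyte exchange factors Vav1 and Dock2 by 1.81 and 1.64. The G protein subunit gene Gng5 had a log2 fold change of -1.01 and the Rap exchange factor Rasgrp2 one of -0.81. The receptor kinase Grk2 (0.08) and Rac1 (-0.03) did not pass. Among chemokines named outside the symbol rule, Pf4 stood at 0.680 to 1.02 CPM in contralateral and 1.52 and 1.47 CPM in tenotomy libraries (log2 fold change 0.86, adjusted p = 0.073), and Ppbp did not pass the filter.

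Macrophage markers were higher with the chemokines. Of 10, 9 passed higher, with a median log2 fold change of 2.07, and their sum was 28.8 to 36.2 CPM in contralateral, 127 and 131 CPM in tenotomy, and 127 and 36.6 CPM in uninjured libraries. Neutrophil markers summed to 0.487 to 2.55 CPM over all libraries, with 1 of 2 tested higher and Ly6g and Elane under 5 counts. T and NK cell markers had 1 of 3 higher, with Trac and Ncr1 under 5 counts, and B cell markers 0 of 1, with Cd79b and Pax5 under 5 counts. Dendritic cell markers had 2 of 3 higher, mast cell 1 of 4, fibroblast 5 of 6, cartilage 4 of 4, lymphatic endothelial 1 of 4 and erythroid markers 1 of 3. Endothelial markers had 1 of 6 lower and adipose markers 2 of 4 lower. Over all features 13.6% were higher and 15.4% lower, so a single marker called in a list does not set that cell type apart. Whether these cell types account for the chemokine changes was not tested, and in bulk tissue fewer cells of a type and less RNA per cell cannot be told apart.

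The uninjured libraries were compared with each of the other groups to ask how the tendons of injured mice differ from those of mice without injury. These comparisons share the uninjured libraries with each other and the remaining groups with the comparison above. No member passed in tenotomy against uninjured or in contralateral against uninjured tendon (edgeR, smallest adjusted p = 0.45 and 0.21), against 0% of all features in each direction. At an unadjusted p under 0.05, 0 were higher and 2 lower in the first and 1 higher and 9 lower in the second, against 3.27% and 7.59% of all features in the first and 8.72% and 10.5% in the second. DESeq2 called 0 members in the first, against 0.0312% higher and 0.873% lower of all features, and 1 lower in the second, against 0.886%. With no filter on low counts, edgeR called 4 members lower in the second, against 0.835% of all features.

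The uninjured libraries differed from each other more than the groups did within themselves. Over the log2 CPM of the tested members, the Euclidean distance between them was 8.67. It was 1.91 and 3.23 from uninjured replicate 1 to tenotomy replicates 1 and 2, and 2.53 between the tenotomy libraries. It was 2.42 to 3.29 within the contralateral group and 3.00 to 3.36 from uninjured replicate 2 to the contralateral libraries. Muscle markers summed to 877 CPM in uninjured replicate 1, near the tenotomy libraries, and to 6521 CPM in replicate 2. Cartilage markers summed to 69.7 CPM in uninjured replicate 1 and 4.78 CPM in replicate 2, against 223 and 227 CPM in tenotomy and 2.63 to 3.70 CPM in contralateral libraries, so that replicate 1 lay between the groups for them. By its distances over the members and by its muscle markers, uninjured replicate 1 was nearer to the tenotomy libraries than to the other uninjured library, against its label, and every statement on the uninjured group depends on which library is kept.

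**Figure D5:**
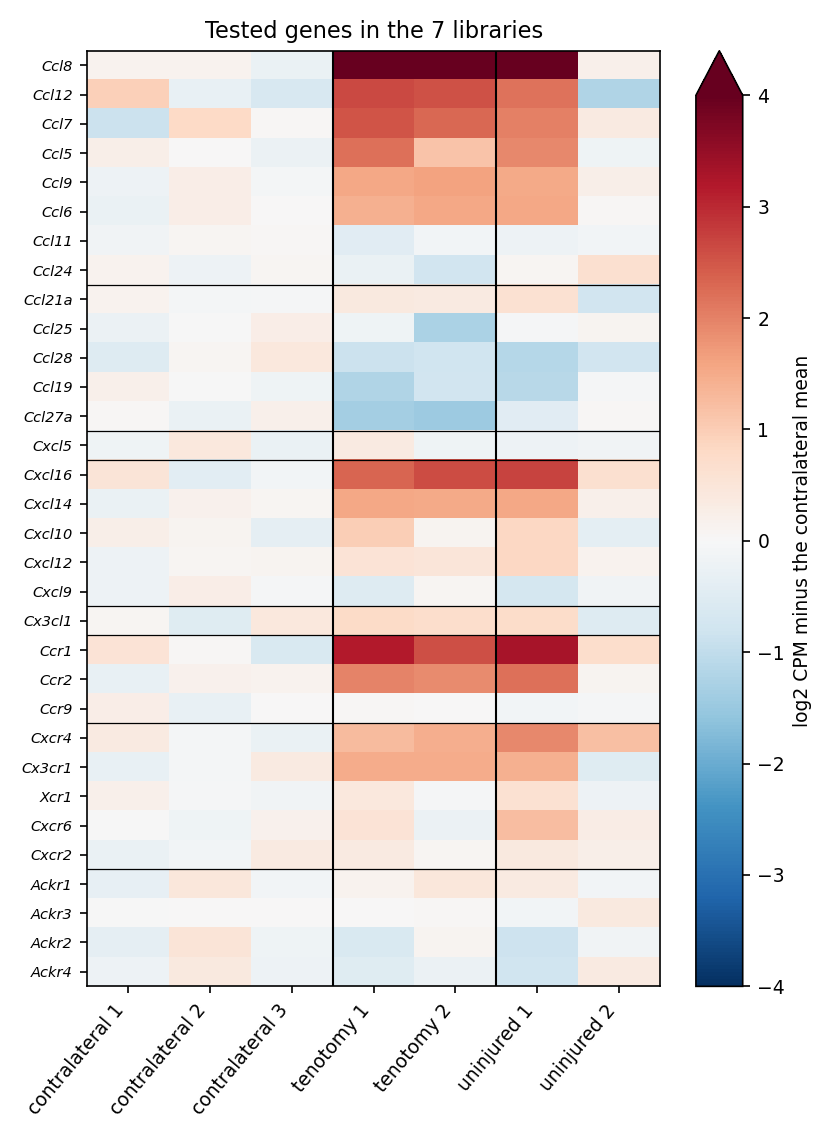
Log2 CPM of 32 of the 33 tested genes in each library, minus the mean of the contralateral libraries (colour scale from -4 to 4, Ccl8 exceeding it). For Ccl8 uninjured replicate 1 (4.37) is near the tenotomy libraries and replicate 2 (0.21) near the contralateral ones, whereas Cxcr4 is red in both uninjured libraries, Ccl28 in replicate 2 (-0.78) is at the tenotomy level (-0.86 and -0.81), and Ccl21a in replicate 2 (-0.77) is below every other library.

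Without uninjured replicate 1, 12 members were higher and 1 lower at the tenotomy site than in the remaining uninjured library, against 11.4% and 13.7% of 17018 features. The genes that were higher included Ccl6, Ccl7, Ccl8, Ccl9, Ccl12, Ccl21a, Cxcl14, Cxcl16, Ccr1, Ccr2 and Cx3cr1, and Ccl27a was lower. Cxcr4 was not among them. Without uninjured replicate 2, 16 members were lower in contralateral tendon than in the remaining uninjured library, against 15% of 16877 features, and they included Cxcr6 and Cxcr4. In that fit no member passed in tenotomy against uninjured tendon, against 0.0593% of features higher. In both fits the single uninjured library is assumed to vary like the other groups.

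Among the 11 genes called at the tenotomy site, Cxcr4 stood furthest from the contralateral mean in uninjured replicate 2. Its log2 ratio to the contralateral mean was 2.11 in uninjured replicate 1 and 1.36 in replicate 2, and its log2 fold change in contralateral against uninjured tendon was -1.79 ± 0.36 (unadjusted p = 0.0012, adjusted p = 0.21 by edgeR). Ccl27a went the other way: its log2 ratio was -1.61 and -1.73 in the tenotomy libraries, -0.50 in uninjured replicate 1 and 0.05 in replicate 2.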

How the data were processed

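Per the labels' protocols, RNA was isolated with Trizol, cleaned on a column and made into libraries with TruSeq RNA reagents. The submitters' processing notes name FastQC 0.11.4 and kallisto, and name GRCh38, a human build, although the transcript IDs in the files are of mouse. The estimated counts per transcript deposited by the authors are not normalized, and the TPM deposited by the authors are scaled by effective length. The 103639 transcript IDs were matched without version to GENCODE M21 (GRCm38), where 101510 matched, and counts were summed per gene and rounded. The 2129 unmatched transcripts were kept as single features.

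Features were filtered with filterByExpr (minimum count 10), normalised by TMM and tested with edgeR 4.0.16 (quasi-likelihood) in R 4.3.3, fitting the 7 libraries together with a mean for each group. Benjamini-Hochberg adjustment ran over all features, with a threshold of 0.05. The SE is the log2 fold change divided by the square root of F. Alternatives were DESeq2 1.42.0, limma-voom (limma 3.58.1), other scalings, no filter, length-scaled TPM, fits of only the groups compared and leaving out each library. The last of these within the 5 tenotomy and contralateral libraries, and the test of transcript use, were added after the data were seen.

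On simulated counts in which 200 of 16028 genes had a log2 change of 2 in the tenotomy libraries, edgeR called 152 of the 200 and 14 others in tenotomy against contralateral tendon. The 14 others were 8.43% of its calls, and most misses lay at low mean counts. All other means were equal between groups, unlike in these data, where 13.6% of features were called higher and 15.4% lower. A recovery of over 80 percent had been set as the criterion and was missed, after which the criterion was changed to the recovered fold change.

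Per-library values and full statistics are given for members called in tenotomy against contralateral tendon in the fit of 7 or of 5 libraries, and for Ccl2, Ccr2, Cxcl12, Cxcr4, Ackr3, Cx3cl1 and Cx3cr1 whatever their values. Some genes are counted in the totals but are not reported here. The members and the gene lists were chosen with earlier results of these data known.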

Additional observations from a re-analysis of the deposited data

How the results depend on the processing

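Over the 3 comparisons no called value changed sign under any alternative tried. Leaving out 1 library at a time from the fit of 7, members called higher in tenotomy against contralateral tendon ranged from 0 to 15 and lower from 0 to 2, with 0 whenever a tenotomy or contralateral library was left out and 15 and 2 without one or the other uninjured library. In the fits of 5 libraries leaving 1 out, 13 to 15 were higher and 1 to 3 lower, and with all 5 there were 2 lower. The signalling list ranged from 0 to 25 higher and 0 to 3 lower over the fits of 7 leaving 1 out, and had 9 higher and 1 lower with length-scaled TPM. Against the uninjured group, leaving out 1 library gave 0 to 12 members higher and 0 to 1 lower at the tenotomy site, and 0 to 16 lower in contralateral tendon. In contralateral against uninjured tendon 4 members were lower with no filter on low counts and 1 with DESeq2. With no filter 54 members were tested. No paired analysis was possible because the labels give no replicate numbers that pair libraries. Low counts limit 27 of the 60 members, which had at most 14 counts in any library. For these an absence of difference cannot be read. Depth is not the only limit for Ccl21b and Ccl27b. Ccl21b shares 100% of its 31-base words with Gm21541, and Ccl27b 98.2% with Gm13306, so reads can hardly be assigned to them.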
